A study of Homo sapiens with 4 samples.

Results

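The integrated stress response regulators are the 10 genes ATF4, ATF5, ATF3, DDIT3, CEBPB, TRIB3, NUPR1, DDIT4, CHAC1 and VLDLR, out of 18132 genes measured. They were taken by name: every probe set of the array whose single gene symbol is one of them was used, and all 10 had at least 1 such probe set, 22 in all. U87MG, an established human glioblastoma cell line, was kept for 24 h with 10 µM mycophenolic acid (MPA), with 100 µM guanosine, with both compounds at these doses, or with DMSO, the solvent, as the control. MPA inhibits IMP dehydrogenase, which makes guanine nucleotides, and guanosine can be turned into guanine nucleotides without that enzyme. All groups were the same line in serum-containing medium, and no genotype differed between them. Total RNA of each condition was read on 1 Affymetrix PrimeView array, 4 arrays in all, so every difference below is between 2 arrays and has no replicate check and no p-value.

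The integrated stress response is a shared programme that cells start when amino acids run short, proteins misfold in the endoplasmic reticulum, haem is lacking or double-stranded RNA appears. Kinases that sense these stresses phosphorylate the translation factor eIF2, which lowers protein synthesis in general and raises translation of ATF4 from its mRNA. ATF4, a transcription factor of the basic leucine zipper (bZIP) class, then induces genes of amino acid supply and further bZIP factors such as ATF3 and DDIT3, also called CHOP, which in prolonged stress favours cell death. Because ATF4 protein is set largely at translation, the level of its mRNA is not a measure of ATF4 activity.

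ATF4 and its C/EBP partners bind a composite element with the letters TGATGNAA, read as TTNCATCA on the other strand. The stretch of 250 bases before the start site is shown for 4 regulators, ATF3 and CHAC1 because it holds these letters, and DDIT3 and VLDLR because they had the highest and the lowest difference between the MPA and DMSO arrays. Sequences are from RefSeq, GRCh38.p14, printed 5′ to 3′ on the gene's strand, with any match in capitals. The ATF3 stretch is that of the upstream one of its start sites, chr1:212565157-212565406, plus strand. That of CHAC1 is chr15:40953221-40953470, plus strand, that of DDIT3 chr12:57520515-57520764, minus strand, and that of VLDLR chr9:2621537-2621786, plus strand.
ATF3: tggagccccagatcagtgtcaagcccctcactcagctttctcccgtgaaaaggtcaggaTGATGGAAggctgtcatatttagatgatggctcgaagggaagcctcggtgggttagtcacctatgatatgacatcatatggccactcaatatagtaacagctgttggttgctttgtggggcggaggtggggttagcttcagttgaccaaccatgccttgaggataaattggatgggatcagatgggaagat
CHAC1: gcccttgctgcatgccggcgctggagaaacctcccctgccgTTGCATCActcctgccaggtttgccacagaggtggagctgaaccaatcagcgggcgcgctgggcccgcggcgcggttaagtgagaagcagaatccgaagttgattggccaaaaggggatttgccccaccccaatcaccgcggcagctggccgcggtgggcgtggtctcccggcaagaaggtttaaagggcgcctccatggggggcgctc
DDIT3: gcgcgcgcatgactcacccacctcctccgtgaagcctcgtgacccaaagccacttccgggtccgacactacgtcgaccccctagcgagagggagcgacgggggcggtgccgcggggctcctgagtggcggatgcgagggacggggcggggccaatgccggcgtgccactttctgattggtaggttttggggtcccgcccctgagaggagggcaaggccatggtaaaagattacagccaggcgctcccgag
VLDLR: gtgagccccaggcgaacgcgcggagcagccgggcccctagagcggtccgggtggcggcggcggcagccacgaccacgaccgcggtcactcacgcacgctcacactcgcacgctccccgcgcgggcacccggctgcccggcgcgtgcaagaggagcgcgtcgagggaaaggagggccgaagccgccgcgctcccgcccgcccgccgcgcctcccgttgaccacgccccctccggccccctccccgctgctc

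The match in ATF3 is TGATGGAA, whose first base lies 191 bases before the start site, and the match in CHAC1 is TTGCATCA, 209 bases before it. Windows of 250 bases before to 50 after the start were searched on both strands for 9 of the regulators. NUPR1 was not searched, because the promoter sequences used here held none for it. The element was in 2 of 17 windows, against 3.62% of 35116 windows of all genes. Several of the 17 overlap, as those of DDIT3, ATF4 and TRIB3 do. Counted by gene, 2 of 9 regulators had it, against 4.46% of 27305 genes. The cyclic AMP response element, TGACGTCA, was in 0 of the 17 windows and in 1.85% of all windows. These are letter matches, and a missing match says only that the letters are not in this window. The 2 genes with a match did not share a pattern over the arrays: ATF3 was highest with MPA, and CHAC1 varied least of the 10, as described further on.

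Signals are on the linear scale of RMA, the authors' array summary, and differences are in log2 of that signal. A floor at the median of all probe set values, a signal of 63.0, separates dim from measured genes, and 11019 genes were at it or brighter somewhere among the 4 arrays. Each of the 10 regulators was above the floor on all 4 arrays in the probe set that stands for it. Median signals of the arrays were 64.5 with MPA, 62.4 with guanosine, 61.8 with both compounds and 62.9 in the control. Log2 values of the MPA array correlated with the other arrays at r between 0.988 and 0.990, and those among the other 3 arrays at r between 0.997 and 0.998. The poly-A spike-in RNAs, added to each sample in the laboratory, read lower with MPA than in the control for all 24 of their probe sets, by -0.24 in the median. On the guanosine array they were higher by a median of 0.22 and on the array of both compounds by 0.24. Their part in the differences below was not tested.

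Of the markers of the line, VIM, CD44, TNC and CHI3L1 were well above the floor, while GFAP, the astrocyte filament, was at 99.6 with MPA and 87.8 in the control. SOX2, S100B, AQP4 and FABP7 were below the floor on all arrays. With MPA, CHI3L1, a secreted glycoprotein of gliomas, was 0.69 higher than in the control on the log2 scale and NES, the progenitor filament nestin, read 142.3 against 220.7 in the control, or -0.63. On all 4 arrays, 2 of 6 endothelial markers, 1 of 5 leukocyte markers, the lysosomal gene CD68, 1 of 6 epithelial markers and 3 of 7 markers of neurons and oligodendrocytes were above the floor. The 2 endothelial genes were VWF and KDR, at 0.24 and -0.23 with MPA. EPCAM, an epithelial adhesion molecule, read 102.2 with MPA, 52.9 with guanosine, 54.9 with both and 55.5 in the control, above the floor with MPA alone, a difference of 0.88. KRT18 was the lowest epithelial marker with MPA at -0.46. CD68 differed by 0.64 and SNAP25, the highest neuronal marker, by 0.71, while TUBB3 was at -0.18. Summed over each list, the endothelial signal was 289.9 with MPA and 285.4 in the control, and the epithelial signal was 434.4 with MPA and 373.0 in the control. The leukocyte sum was 1973 with MPA and 1297 in the control, nearly all of it CD68, and PTPRC, the defining leukocyte gene, was below the floor on all arrays. The neuron and oligodendrocyte sum, mostly SNAP25 and TUBB3, was 3742 with MPA and 3208 in the control. Their part in the differences of the regulators was not tested.

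**Figure D1:**
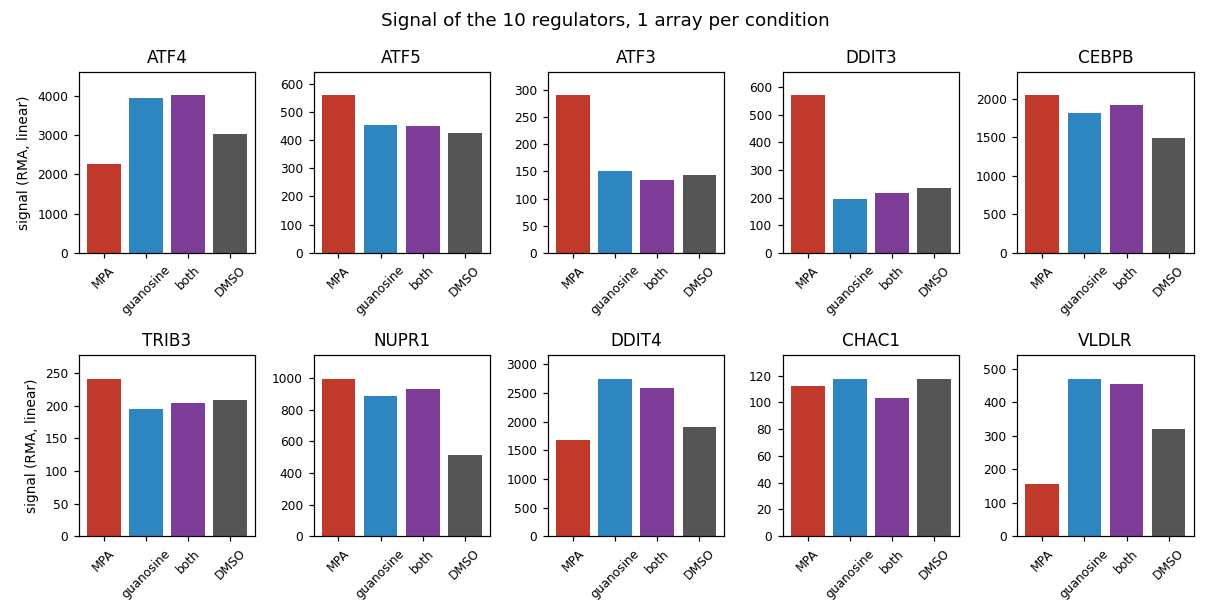
Signal of each regulator (linear RMA scale, y axis from 0) on the MPA, guanosine, both-compound and DMSO arrays; each bar is 1 array, so there are no error bars. DDIT3 and ATF3 are high on the MPA array alone, ATF4, DDIT4 and VLDLR are lowest there and high on both guanosine arrays, and NUPR1 is low on the DMSO array alone.

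MPA alone divided the regulators. DDIT3, ATF3 and NUPR1 were at least 1.5-fold higher on the MPA array than on the DMSO array, VLDLR was at least 1.5-fold lower, and the other 6 lay between these bounds. DDIT3, ATF3 and VLDLR also passed 2-fold. Over all 10951 genes in this comparison, 5.41% passed 1.5-fold upwards and 7.52% downwards, while 1.73% passed 2-fold upwards and 1.42% downwards. The 10 regulators had a median difference of 0.30, with 6 above 0 and 4 below, and all genes compared had a median of 0.0024. The larger shares among the regulators are a description, since the list was drawn up with results of these data known.

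Among the bZIP factors, ATF4 itself had a lower mRNA signal with MPA. It stood at 2270 with MPA, 3931 with guanosine, 4006 with both compounds and 3026 in the control. The MPA array was therefore the lowest of the 4, both guanosine arrays were above the control, and those 2 lay close together. The log2 difference from the control was -0.41 with MPA, 0.38 with guanosine and 0.40 with both, none of them past 1.5-fold. Both compounds against MPA alone gave 0.82, or 1.76-fold. Set against guanosine alone, MPA gave -0.79, which passes 1.5-fold. The gene has a single probe set, of the kind whose probes can bind other transcripts too, so no second reading of ATF4 was at hand.

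ATF5, the closest relative of ATF4 and like it a stress-translated factor, went the other way. Its main probe set read 557.8 with MPA, 451.8 with guanosine, 449.0 with both and 425.1 in the control. MPA gave the highest signal, and in this probe set the other 3 arrays lay within 0.09 of each other on the log2 scale. The difference between the MPA and DMSO arrays was 0.39, under 1.5-fold. All 4 probe sets of ATF5 were above the floor on all arrays, and the other 3 gave 0.33, 0.33 and 0.31. Those 3 were also above the control with guanosine, by 0.31, 0.27 and 0.24, and with both compounds, by 0.20, 0.23 and 0.18. The probe sets thus differ on the guanosine arrays, and the median over probe sets put guanosine at 0.31 above the control, where the main probe set gave 0.09.

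ATF3, a bZIP factor that mostly represses transcription and that p53 can also induce, was among the called genes. Its main probe set read 289.3 with MPA, 150.8 with guanosine, 134.8 with both and 142.6 in the control, so the MPA array alone was high. The difference from the control was 1.02 on the log2 scale, or 2.03-fold. Of its 6 other probe sets, 1 was above the floor on the MPA array only, with a difference of 0.46, and 5 were below it on all 4 arrays, with differences between -0.19 and 0.18. The 2.03-fold value therefore rests on 1 probe set, and the median over its probe sets lay below the floor, so that ATF3 was not compared under that summary.

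DDIT3, the pro-apoptotic partner that blocks C/EBP factors by pairing with them, had the highest MPA difference of the 10. It read 569.7 with MPA, 196.3 with guanosine, 216.9 with both and 233.7 in the control. Only the MPA array was high, and the 2 guanosine arrays were a little below the control. The log2 difference between MPA and the control was 1.29, or 2.44-fold. A second probe set read 496.0 with MPA, 167.5 with guanosine, 172.1 with both and 203.3 in the control, and its difference was also 1.29.

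CEBPB, a C/EBP factor that pairs with ATF4 and with DDIT3, was at 2045 with MPA, 1822 with guanosine, 1918 with both and 1491 in the control. All 3 treated arrays were above the control, by 0.46, 0.29 and 0.36 on the log2 scale, and none reached 1.5-fold. Of the 5 bZIP regulators, ATF3 and DDIT3 were thus high on the MPA array alone, ATF5 and CEBPB had the MPA array highest and the control lowest, and ATF4 was lowest on the MPA array.

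Among the downstream genes, NUPR1, a small stress-induced chromatin protein, rose past 1.5-fold with every treatment. Its only probe set read 994.7 with MPA, 888.5 with guanosine, 932.6 with both and 511.9 in the control. The 3 treated arrays lay close together and the DMSO array stood apart below them. The log2 difference from the control was 0.96 with MPA, 0.80 with guanosine and 0.87 with both. Because all 3 use the same DMSO array, they are not separate readings of that array, and against the guanosine array the MPA difference was 0.16.

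TRIB3, a pseudokinase that ATF4 and DDIT3 induce and that holds ATF4 back in turn, hardly differed between arrays. It read 241.7 with MPA, 195.7 with guanosine, 204.2 with both and 209.5 in the control. The difference between MPA and the control was 0.21, and the other probe set, below the floor on all arrays, gave 0.35. CHAC1, which breaks down glutathione and is a sensitive ATF4 target in other stresses, read 112.1 with MPA, 117.6 with guanosine, 103.4 with both and 117.6 in the control. It spanned 0.19 on the log2 scale over the 4 arrays, the smallest span of the 10. The equal signal on the guanosine and DMSO arrays is not unique to CHAC1, since 387 of 49293 probe sets had identical deposited values on those 2 arrays, with no tolerance. Its other probe set was below the floor on all arrays, at a difference of 0.20.

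DDIT4, an inhibitor of the growth kinase complex mTORC1 that is also induced by hypoxia and by p53, followed the arrangement of ATF4. It read 1685 with MPA, 2748 with guanosine, 2592 with both and 1908 in the control. The MPA array was the lowest, by 0.18 below the control on the log2 scale, and the guanosine arrays were 0.53 and 0.44 above it. Set against guanosine alone, the MPA difference of DDIT4 was -0.71. VLDLR, a lipoprotein receptor that ATF4 induces under endoplasmic reticulum stress in mouse liver cells, showed the same arrangement with larger steps. It read 155.8 with MPA, 470.0 with guanosine, 455.2 with both and 320.9 in the control. The difference from the control was -1.04 with MPA, which is 2.06-fold lower, and 0.55 and 0.50 with guanosine and with both compounds.

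**Figure D2:**
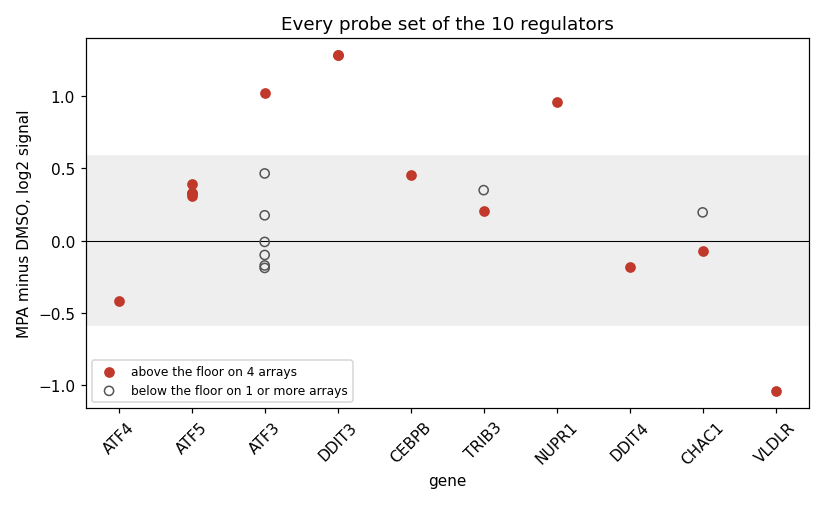
Difference between the MPA and DMSO arrays in log2 signal (y axis) for all 22 probe sets of the 10 regulators; filled points are above the floor of 63.0 on all 4 arrays, open points below it on at least 1, and the grey band spans 1.5-fold in either direction. The 2 probe sets of DDIT3 coincide at 1.29, the 4 of ATF5 lie between 0.31 and 0.39, and those of ATF3 spread from -0.19 to 1.02.

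Guanosine alone and both compounds together gave nearly the same picture against the control. With guanosine, NUPR1 was the only one of the 10 at least 1.5-fold higher and 0 were at least 1.5-fold lower, where 0.366% and 0.131% of 10663 genes passed. With both compounds the counts were again 1, NUPR1, and 0, where 0.469% and 0.169% of 10672 genes passed. The medians over the 10 were 0.19 with guanosine and 0.22 with both, against -0.00089 and 0.02 for all genes. VLDLR, DDIT4 and ATF4 came next after NUPR1 in both comparisons, at 0.55, 0.53 and 0.38 with guanosine. DDIT3 was the lowest with guanosine, at -0.25, and CHAC1 with both compounds, at -0.19. These 2 comparisons share the DMSO array.

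With both compounds against MPA alone, 5 of the 10 passed 1.5-fold. VLDLR (455.2 with both against 155.8 with MPA, log2 1.55 or 2.92-fold), ATF4 (0.82) and DDIT4 (0.62) were higher with both compounds, and 8.82% of 10956 genes passed in that direction. DDIT3 (216.9 with both against 569.7 with MPA, log2 -1.39) and ATF3 (134.8 with both against 289.3 with MPA, log2 -1.10) were lower, where 4.77% passed. VLDLR passed 2-fold upwards and DDIT3 and ATF3 downwards, with 1.63% and 1.55% of all genes past 2-fold. NUPR1 and CEBPB, which were above the control on the MPA array, differed by -0.09 each when guanosine was added. This comparison shares the MPA array with MPA against the control. After cyclic loess DDIT4 was at 0.55, short of 1.5-fold.

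MPA in the presence of guanosine, that is both compounds against guanosine alone, left the regulators close to where guanosine had them. Of the 10, 0 were past 1.5-fold upwards and 0 downwards, where 0% and 0.0189% of 10599 genes were. The differences ran from -0.19 for CHAC1 to 0.14 for DDIT3, with a median of 0.0092 over the 10 and 0.02 over all genes. These arrays are not used in MPA against DMSO, so the 2 MPA differences of a gene can be set side by side. Without guanosine DDIT3 differed by 1.29 and with it by 0.14, a gap of 1.14. The gap was 1.18 for ATF3, and VLDLR differed by -1.04 without guanosine and by -0.05 with it. NUPR1 had a gap of 0.89, but only its DMSO array was low, and guanosine alone was already 0.80 above the control. The gap was -0.44 for ATF4, 0.40 for ATF5, 0.38 for CEBPB, 0.14 for TRIB3, 0.12 for CHAC1 and -0.09 for DDIT4.

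**Figure D3:**
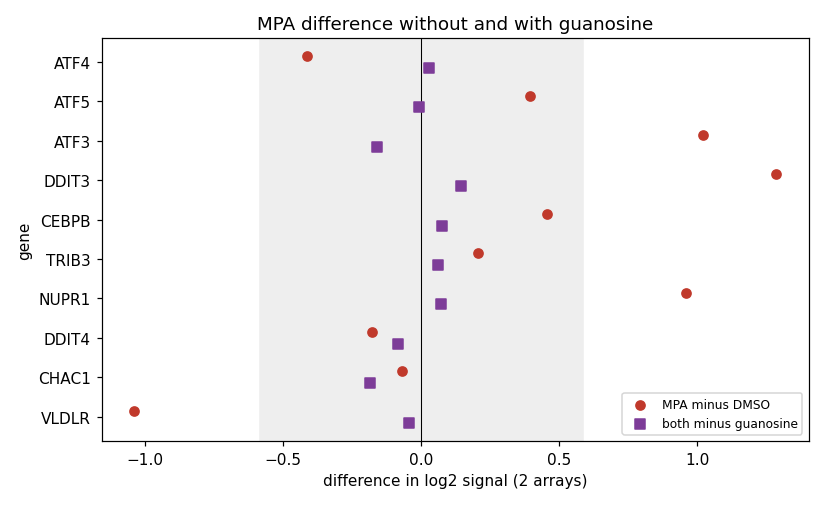
Difference in log2 signal (x axis) for each regulator between MPA and DMSO (circles) and between both compounds and guanosine (squares), 2 arrays each; the grey band spans 1.5-fold in either direction. The squares lie between -0.19 and 0.14, and 4 of the 10 circles, DDIT3, ATF3, NUPR1 and VLDLR, lie outside the band.

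The regulators fell into arrangements of the 4 arrays rather than moving as a block. The MPA array was the highest for 6 of them, ATF5, ATF3, DDIT3, CEBPB, TRIB3 and NUPR1, as it was for 40.8% of the 11019 genes. The DMSO array was the lowest for 3, ATF5, CEBPB and NUPR1, against 21.8% of genes. ATF4, DDIT4 and VLDLR had the MPA array below the control and both guanosine arrays above it, an arrangement shown by 19.7% of genes. When each of those steps had to be at least 1.2-fold, ATF4 and VLDLR remained, 2 of 10, and 0.762% of all genes, or 84, had it. These arrangements were picked after the values were seen. The spike-in RNAs, added in the laboratory, had the arrangement of ATF4 in the median too. Their median differences from the control were -0.24 with MPA, 0.22 with guanosine and 0.24 with both compounds. Their part in the arrangement of these genes was not tested. Over all 4 arrays the median span of the 10 was 0.76 on the log2 scale and that of all genes 0.32. Without the MPA array the medians were 0.31 and 0.14.

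The genes most like 3 of the regulators were found by the largest gap over the 4 arrays between log2 values centred on each gene's own mean. For DDIT3 they were AKR1B10, SUN3 and MFAP4, each within 0.06, with MPA differences of 1.35, 1.22 and 1.21 from the control, SUN3 being below the floor on all arrays but that of MPA. For VLDLR they were PARP16, TAOK1 and DUSP6, within 0.13 to 0.15. For ATF4 they were SLC15A4 and KLF7, both within 0.02, and MTCL3, within 0.04. Among the regulators themselves, DDIT4 was the nearest to ATF4, within 0.13, and ranked 113 among all genes. ATF3 was the nearest to DDIT3, within 0.31, and ATF4 the nearest to VLDLR, within 0.54. With 4 arrays such likeness says little about any one gene.

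Upstream of the regulators are the eIF2 kinases and the genes around them. Of 10 genes above the floor, 0 passed 1.5-fold upwards with MPA and 1 downwards, where 5.41% and 7.52% of all genes did. For lists this small, such counts are near the shares of all genes. The lower gene was IMPACT, an inhibitor of the kinase GCN2, at -0.65, with a list median of -0.14. PRKRA, an activator of the kinase PKR, was the highest at 0.25. EIF2AK3, the endoplasmic reticulum kinase PERK, read 276.9 with MPA, 414.9 with guanosine, 469.2 with both and 360.9 in the control, which is the arrangement of ATF4. EIF2AK4, which encodes GCN2, was below the floor on all 4 arrays. Among 12 subunits of eIF2, of its exchange factor eIF2B and of its phosphatase, 0 passed 1.5-fold in either direction, with a median of -0.07. PPP1R15A, the stress-induced phosphatase subunit GADD34, was the highest at 0.41 and EIF2S1, the subunit that is phosphorylated, the lowest at -0.50.

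With MPA, 1 of 20 other bZIP factors and 4 of 8 paralogs of the regulators passed 1.5-fold. The 2 lists overlap, and CEBPD counts in both. Over all genes, 5.41% passed upwards and 7.52% downwards. Of 20 other CREB/ATF and C/EBP factors, 1 was at least 1.5-fold higher, CEBPD at 0.59, and 0 were lower, with BATF3 the lowest at -0.47 and a list median of 0.10. CEBPD read 360.3 with MPA, 304.7 with guanosine, 341.2 with both and 239.4 in the control, so all treated arrays were above the control, as for CEBPB. Of 8 paralogs of the regulators, 2 were higher and 2 lower. DDIT4L, a relative of DDIT4, read 292.7 with MPA, 92.8 with guanosine, 96.4 with both and 84.0 in the control, a difference of 1.80, where DDIT4 itself differed by -0.18. LRP8, a relative of VLDLR and like it a reelin receptor, read 414.3 with MPA, 838.8 with guanosine, 817.4 with both and 764.7 in the control, a difference of -0.88. CHAC2, a relative of CHAC1, was at -0.62, and CEBPD was the second of the higher ones.

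The known targets of ATF4 did not share 1 direction with MPA. Over all genes, 5.41% passed 1.5-fold upwards and 7.52% downwards. Of 8 genes of amino acid metabolism, 0 passed 1.5-fold upwards and 1 downwards, SHMT2, of serine and folate metabolism, at -0.60, with a median of -0.35 and CTH the highest at 0.12. Of 8 amino acid transporters, 0 were higher and 1 lower, SLC1A5 at -0.86, with SLC3A2 at 0.49 and a median of 0.06 that is -0.26 with the floor at the 75th percentile. Of 11 genes of tRNA charging and export, 0 were higher and 1 lower, XPOT at -0.61. SARS1 was the highest there at 0.22, and the median was -0.05, or 0.02 after cyclic loess. The medians of these 3 lists with guanosine against the control were 0.14, 0.04 and 0.17.

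The fourth target list, of signalling, autophagy and secretion genes induced by ATF4 or CHOP, had 6 of 16 genes at least 1.5-fold higher with MPA and 1 lower, where 5.41% and 7.52% of all genes were, with a median of 0.30. Those higher were GDF15 (3.30), KLHL24 (1.68, below the floor in the control), BBC3 (1.41), SESN2 (0.91), SQSTM1 (0.68) and TNFRSF10B (0.62, below the floor in the control). GDF15 is a secreted stress cytokine, BBC3 and TNFRSF10B promote apoptosis and SESN2 restrains mTORC1, and these 4 are also known p53 targets. EIF4EBP1, a repressor of cap-dependent translation, was the lowest at -0.68. Of these, KLHL24 passed 1.5-fold with guanosine too, at 0.72. The chaperone and degradation genes of the ATF6 and XBP1 arms of the unfolded protein response had 0 of 17 past 1.5-fold in either direction, with a median of -0.12, WFS1 at 0.46 and MANF at -0.42.

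Across the 4 target lists, 20 of 44 genes that reached the floor anywhere, 45.5%, had the arrangement of ATF4, against 19.7% of all genes. They were 8 of 11 genes of tRNA charging and 5 of 9 of amino acid metabolism. The transporters gave 2 of 8 and the fourth list 5 of 16. With probe sets summarised by their median 13 of the targets had the arrangement, and after cyclic loess 16. The share of all genes was not computed for those settings. The arrangement was picked after the values were seen and the lists with earlier results known, so these shares are a description. The arrangement was not confined to targets, since 5 of 10 genes of the eIF2 kinase list had it. The spike-in RNAs had it in the median too. When each step had to be at least 1.2-fold, 3 of the 44 had it, 6.82% against 0.762% of all genes, and all 3 were of amino acid synthesis. ASNS, asparagine synthetase, read 482.5 with MPA, 1021 with guanosine, 1011 with both and 615.0 in the control. PSAT1, of serine synthesis, read 967.9 with MPA, 1815 with guanosine, 1872 with both and 1311 in the control. PSPH, the last enzyme of that pathway, read 38.9 with MPA, 82.0 with guanosine, 83.7 with both and 54.2 in the control, the first and the last of these below the floor. These 3 genes had the MPA array lowest and the guanosine arrays highest, like ATF4, DDIT4 and VLDLR.

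**Figure D4:**
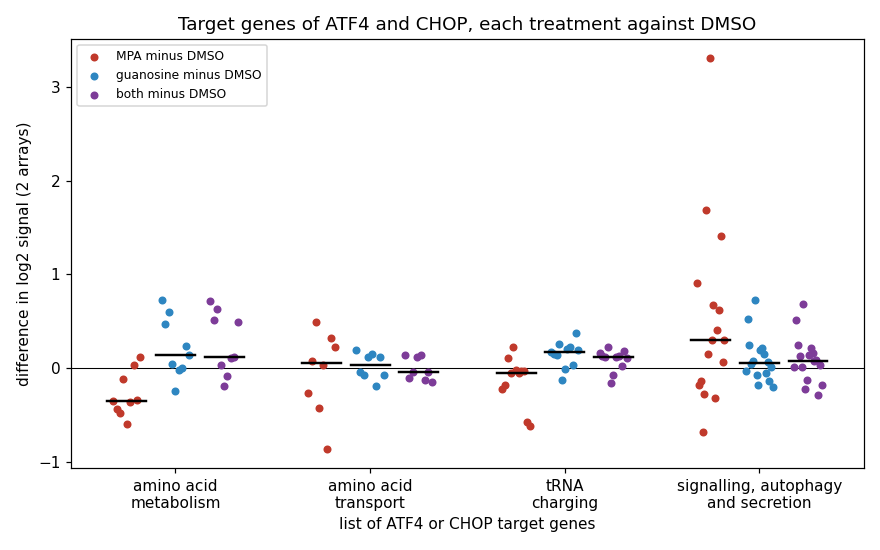
Difference in log2 signal from the DMSO array (y axis) for the genes of 4 lists of ATF4 or CHOP targets that reached the floor anywhere; each point is 1 gene, on 2 arrays, and black lines are list medians over these genes. With MPA the amino acid metabolism median is -0.35 and that of the signalling, autophagy and secretion list 0.30, with GDF15 the highest point at 3.30.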

How the data were processed

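Each array's deposited values are intensity values on the linear scale, named by the authors as RMA signal, per the labels; RMA corrects background, normalises by quantiles and summarises probes, so a change in total mRNA per cell would not show. No source used here gives the software, its version or its settings. Of 49395 probe sets, 44994 had 1 symbol in the platform table, 1832 had several and 2569 were not listed. The log2 was taken (Python 3.11.15, pandas 2.3.3, numpy 2.4.6). A gene was represented by its brightest probe set on average, with _x_at sets used only where there was no other. A gene was compared when the brighter of the 2 arrays reached the floor, 63.0. With 1 array per condition there is no test, and the number of arrays limits precision; genes are counted at fixed folds of 1.5 and 2.

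All 10 regulators are named. From each of 14 lists of pathway and marker genes the highest and lowest member with MPA are named, and up to 2 more past 1.5-fold; further ones (among them EIF2AK3, ASNS, PSAT1, PSPH and the rest of the 6 higher targets) were named after their values were seen. Members and lists were chosen with earlier results of these data known. Protein sequences were not used here. On simulated arrays of MPA against DMSO (10657 genes), the 1.5-fold count took in 50 of 50 genes raised by 1.5 in log2, 50 of 50 at -1.5, 1 of 50 at 0.3, 0 of 50 at -0.3 and 0 of 10457 left unchanged. The simulated noise was that of the closest pair of arrays, the same for every gene, and can understate culture differences. With this noise, changes of 1.5 were sure to be counted, so the run checks only the counting. The changed genes were drawn from genes well above the floor, brighter than ATF3, TRIB3 and CHAC1. Alternatives were a median over probe sets, _x_at sets kept, no floor, a floor at the 75th percentile, cyclic loess (limma 3.58.1, 3 iterations), median centring, log2(signal + 50), and the guanosine array in place of DMSO.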

Additional observations from a re-analysis of the deposited data

Results flagged for a closer look

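For 3 regulators the MPA difference had opposite signs without and with guanosine. ATF4 differed by -0.41 between MPA and DMSO and by 0.03 between both compounds and guanosine, a gap of -0.44. ATF5 differed by 0.39 and by -0.0088, a gap of 0.40, and the second of these was 0.0073 after median centring. ATF3 differed by 1.02 and by -0.16, a gap of 1.18. In each case 1 of the 2 values is small, and the difference between them was not tested, since there is 1 array per condition.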

How the results depend on the processing

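No paired analysis was possible because each condition has 1 array, and for the same reason no replicate could be left out. The counts of regulators past 1.5-fold stayed within 1.5 times of their main values in all 5 comparisons under every alternative run: 3 to 5 with MPA against DMSO, 1 with guanosine, 1 with both compounds, 4 or 5 with both against MPA, and 0 with both against guanosine. Of 417 values under alternatives, 412 were labelled unchanged. Log2 differences so labelled kept their side of 1.5-fold, and those past it kept their direction. Under 1.5-fold a change of sign did not count. CHAC1, for example, was at -0.07 with MPA against DMSO and at 0.06 with the median over probe sets. Counts of regulators and of ATF4 targets in the arrangement of ATF4 are among the 417. Those were labelled unchanged when within 1.5 times of the main count. The exceptions were those given above for NUPR1 (0.16), ATF4 (-0.79) and DDIT4 (-0.71) against the guanosine array, DDIT4 after cyclic loess (0.55) and the 13 ATF4 targets; the cause was not tested. With the median over probe sets ATF3 lay below the floor and was not compared, and CHAC1 was not compared where the MPA array was not used. With the floor at the 75th percentile, 8 of the 10 were compared where the MPA array was used and 6 elsewhere. TRIB3 and CHAC1 were left out throughout, and ATF3 and DDIT3 where the MPA array was not used. The counts under these settings therefore cover fewer regulators. Adding 50 to each signal lowered the counts over all genes at 1.5-fold to 934 with MPA against DMSO (1416 otherwise), 27 with guanosine (53), 26 with both compounds (68), 956 with both against MPA (1489) and 1 with both against guanosine (2); the last was 5 with the median over probe sets and 7 with no floor. With the floor at the 75th percentile, fewer genes were compared and the counts were 29 with guanosine, 32 with both compounds, 947 with both against MPA and 1 with both against guanosine.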
